A study of Mus musculus with 8 samples.

Results

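Receptors that switch natural killer (NK) cells on, and the adaptors that carry their signal, were examined as a set of 10 genes. They were chosen by name, with earlier results of these data known, out of the 54232 gene IDs in the table of counts. The set holds 4 receptors (*Ncr1*, *Fcgr3*, *Cd226* and *Slamf7*), 3 transmembrane adaptors (*Fcer1g*, *Tyrobp* and *Hcst*), 2 SH2-domain adaptors (*Sh2d1a* and *Sh2d1b1*) and the kinase *Syk*. Each of the 10 was found under its symbol and passed the filter on low counts. Spleen NK cells were compared with CD8+ T cells by RNA-seq after FACS, with 3 libraries per cell type and a pool of 3 spleens behind each library. Both cell types came from *Tyk2*-/- mice labelled C57BL/6, and C57BL/6N in the study's methods, aged 8 to 12 weeks and under homeostatic conditions, that is without interferon treatment or a tumor. The *Tyk2* deletion is therefore shared by both groups, and NK cells with intact *Tyk2* were not analysed here, so no value below measures an effect of *Tyk2*. The NK cells were sorted as NK1.1+ cells, NK1.1 being the product of *Klrb1c*.

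Most activating receptors of NK cells have short intracellular tails and signal through small partner proteins in the membrane. *Fcer1g* (FcRγ) and *Tyrobp* (DAP12) carry an immunoreceptor tyrosine-based activation motif (ITAM), which after phosphorylation recruits the kinases SYK and ZAP70, whereas *Hcst* (DAP10) carries a different tyrosine motif and recruits phosphoinositide 3-kinase and GRB2. Receptors of the SLAM family instead bind the SH2-domain adaptors *Sh2d1a* (SAP) and *Sh2d1b1* (EAT-2). T cells build their antigen receptor on the related ITAM chains of the CD3 complex and CD3ζ and rely mainly on ZAP70, so the comparison asks which parts of this receptor machinery are transcribed in one lymphocyte and not in the other.

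The genes are spread over 5 chromosomes, and 4 of the 10 (*Sh2d1b1*, *Fcgr3*, *Fcer1g* and *Slamf7*) lie on chromosome 1 between 170277320 and 171653035 of GRCm38. *Tyrobp* and *Hcst* are neighbours on chromosome 7 with their 3′ ends facing each other, 126 bases apart and with no exon base in common. RefSeq promoter windows on GRCm38.p6 were listed for 7 of the 10 genes. Below are the 250 bases before the start site of 2 genes without a count in CD8+ T cells (*Ncr1* and *Sh2d1b1*), of the adaptor *Fcer1g* and of the adaptor *Hcst*, which had reads in every library of both cell types. They read 5′ to 3′ on the gene's strand, with capitals marking matches on either strand to TGTGGT, the core bound by RUNX factors, or AGGAAG, bound by ETS factors. The windows are chr7:4337465-4337714 (plus strand) for *Ncr1*, chr1:170277068-170277317 (plus strand) for *Sh2d1b1*, chr1:171234350-171234599 (minus strand) for *Fcer1g* and chr7:30419855-30420104 (minus strand) for *Hcst*.
Ncr1: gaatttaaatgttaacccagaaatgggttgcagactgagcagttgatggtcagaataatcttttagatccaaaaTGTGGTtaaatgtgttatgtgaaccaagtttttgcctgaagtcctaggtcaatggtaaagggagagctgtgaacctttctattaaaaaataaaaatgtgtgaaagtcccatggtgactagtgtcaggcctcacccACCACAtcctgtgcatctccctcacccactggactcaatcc
Sh2d1b1: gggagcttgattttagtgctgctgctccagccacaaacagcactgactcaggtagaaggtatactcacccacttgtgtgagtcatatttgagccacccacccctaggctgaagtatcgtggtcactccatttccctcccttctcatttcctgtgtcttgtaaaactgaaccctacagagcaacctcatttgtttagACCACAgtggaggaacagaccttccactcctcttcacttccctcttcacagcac
Fcer1g: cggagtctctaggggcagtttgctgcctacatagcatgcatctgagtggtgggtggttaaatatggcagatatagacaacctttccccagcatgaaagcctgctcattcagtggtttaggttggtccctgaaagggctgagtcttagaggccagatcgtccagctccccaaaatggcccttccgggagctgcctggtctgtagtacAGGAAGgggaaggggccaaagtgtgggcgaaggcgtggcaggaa
Hcst: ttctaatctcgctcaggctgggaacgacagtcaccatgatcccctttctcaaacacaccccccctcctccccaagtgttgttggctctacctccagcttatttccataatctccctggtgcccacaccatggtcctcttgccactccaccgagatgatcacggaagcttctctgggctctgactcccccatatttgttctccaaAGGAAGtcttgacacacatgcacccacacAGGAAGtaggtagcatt
TGTGGT was found 2 times in the *Ncr1* window and 1 time in that of *Sh2d1b1*, and 14.0% of all 32851 windows of this length hold it. No other listed window of the set held it, including those of *Slamf7* and *Syk*, also without a count in CD8+ T cells. AGGAAG was found 2 times for *Hcst* and 1 time each for *Fcer1g*, *Fcgr3* and *Slamf7*, against 29.5% of all windows. The T-box core TCACACC, present in 3.33% of all windows, was in none of the 7, and the *Syk* window held none of the 3 motifs. The motifs do not overlap one another in letters, and a match in a window is a description of its letters only.

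Total counts per library were 32848432 to 38573550 in NK cells and 20957384 to 26144478 in CD8+ T cells. *Tyk2* itself, the targeted gene, had 3864, 4245 and 3207 counts in NK cells and 105, 919 and 554 in CD8+ T cells, and which exons the deletion removes is not resolved by counts per gene. The NK cell libraries held 17224 to 17373 genes with a count and the CD8+ T cell libraries 12893 to 14042. The common biological coefficient of variation was 0.847 within NK cells and 1.40 within CD8+ T cells. Correlations of log2 levels between libraries (Pearson r) were 0.924 to 0.930 within NK cells and 0.675 to 0.728 within CD8+ T cells. Between the cell types they were 0.656 to 0.696, so CD8+ T cell libraries were little more alike than the cell types were. How far this bears on the zeros in CD8+ T cells was not tested. Summed markers matched the labels. Over 6 CD8+ T cell genes the sum was 9065 to 10303 CPM (counts relative to the library total) in CD8+ T cells. In NK cells it was 285 to 481 CPM. Over 6 NK cell genes the sum was 58080 to 73389 CPM in NK cells against 3325 to 5444 in CD8+ T cells. The lists hold *Cd8a*, *Cd8b1* and *Klrb1c*, genes of the sort markers CD8 and NK1.1, so this match is not independent of the sort. The NK cell gene sum came mostly from *Gzma* and *Nkg7* in NK cells and from *Nkg7* in CD8+ T cells. *Nkg7* had 84416, 114491 and 91575 counts in CD8+ T cells. Each gene of both lists nevertheless had its libraries fully apart in the labelled direction. *Cd8b1* was at 0 in every NK cell library, but the other 5 CD8+ T cell genes had NK cell counts. These were 4879, 7598 and 4337 for *Cd3g*, 2978, 8065 and 6290 for *Cd3d* and 308, 441 and 419 for *Trac*. *Cd3e* had 276, 509 and 227, and *Cd8a* had 22, 0 and 0. Several of the genes studied are also transcribed by myeloid cells or B cells. Summed over 5 myeloid genes the level was 8.65 to 29.7 CPM in NK cells and 0.0847 to 4.92 CPM in CD8+ T cells. Of these genes *Cd68* had 883, 633 and 235 counts in NK cells and 1, 55 and 147 in CD8+ T cells. *Lyz2* had 0, 0 and 43 counts in NK cells and *Csf1r* 0, 22 and 0, while *Adgre1* and *Cd14* were at 0 in all 6 libraries. Summed over 4 dendritic cell genes it was 8.81 to 25.6 CPM and 0 to 15.2 CPM, over 3 neutrophil genes 0.724 to 1.65 CPM and 0 to 0.127 CPM, and over 5 erythroid and platelet genes 0.591 to 5.56 CPM and 0.067 to 1.48 CPM. The 3 B cell genes summed to 0.0622 to 52.6 CPM in NK cells and 32.5 to 230.4 CPM in CD8+ T cells. The part of these other cells in the results was not tested.

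**Figure D1:**
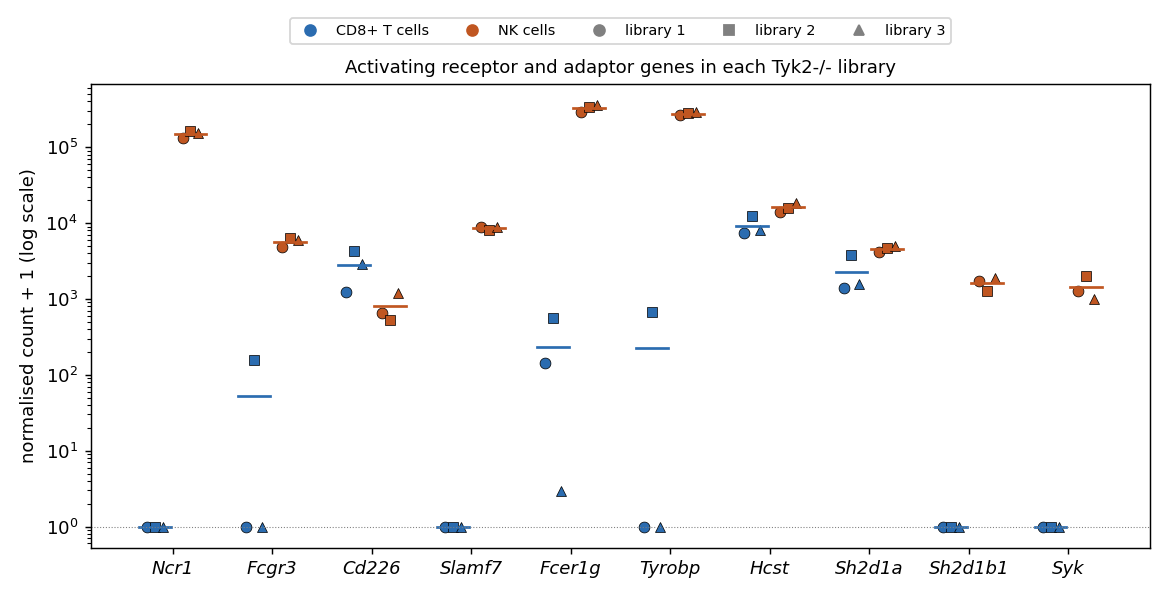
Normalised count + 1 of each gene in each library on a log axis, with CD8+ T cells in blue, NK cells in orange, lines at the group means and libraries without a count on the dotted line. For 9 genes the 3 NK cell libraries lie above the 3 CD8+ T cell libraries, and for *Cd226* they lie below.

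In 9 of the 10 genes every NK cell library lay above every CD8+ T cell library, an arrangement found in 25.5% of the 14062 genes tested, and for *Cd226* every CD8+ T cell library lay above every NK cell library, found in 16.1%. With edgeR's quasi-likelihood test, 5 of the 10 (*Ncr1*, *Slamf7*, *Fcer1g*, *Sh2d1b1* and *Syk*) were higher in NK cells at an adjusted p-value below 0.05 and a change of 1 or more on the log2 scale, beside 6.1% of all genes tested, and none was called higher in CD8+ T cells, beside 5.04%. At an unadjusted p below 0.05, 9 of the 10 passed in edgeR, *Cd226* among them in the direction of CD8+ T cells, beside 30.7% of all genes. DESeq2 called 8 of the 10, with *Cd226* higher in CD8+ T cells, and left out *Hcst* and *Sh2d1a*. Over all genes DESeq2 called 3537, against 1567 with edgeR. The median log2 fold change of the 10 genes was 10.37, or 8.80 with undetected genes set to their lower bound, beside 0.10 over all genes tested. The number of calls changed when a library was left out, in the set and over all genes. Without CD8+ T cell library 2 the set had 9 calls, the exception being *Cd226*, beside 1876 over all genes. Without CD8+ T cell library 1 it had 6, which added *Cd226*, beside 1642. Without NK cell library 1, 2 or 3 the set had 4 calls each time and lost *Fcer1g*. Over all genes the calls then fell from 1567 to 482, 485 and 475. In bulk RNA, fewer cells of a type and less RNA per cell cannot be told apart.

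**Figure D2:**
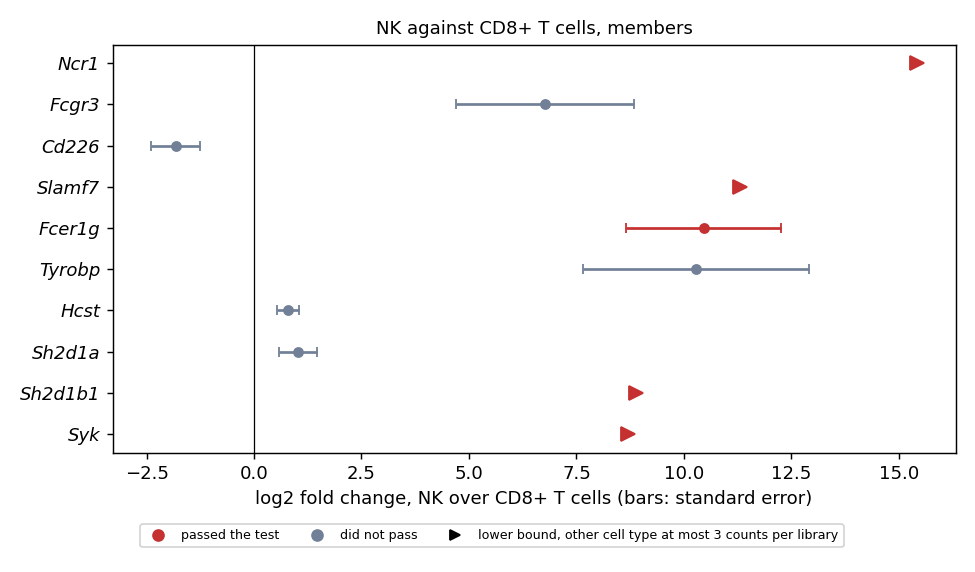
Log2 fold change for each gene, positive where NK cells were higher, with the standard error as a bar and red for genes that passed the test. Triangles are lower bounds for the 4 genes with 0 counts in every CD8+ T cell library, the highest being *Ncr1*.

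*Ncr1* (ENSMUSG00000062524, chr7:4337724-4345164, plus strand) encodes NKp46, a receptor by which NK cells are defined. It had 137008, 195219 and 171612 counts in NK cells and none in any CD8+ T cell library, so the groups were fully apart. Its normalised count in NK cells was 150373 ± 15477 (SD, n = 3), at least 44000.2-fold higher than the floor of 3 counts per library in CD8+ T cells (edgeR adjusted p = 0.00017). *Slamf7* (ENSMUSG00000038179, chr1:171632403-171653035, minus strand), a SLAM family receptor that binds itself on neighbouring cells, had the same pattern. It was at 0 in CD8+ T cells and at 8982, 9626 and 9975 counts in NK cells, a normalised count of 8590 ± 471 (SD, n = 3) and at least 2514-fold higher (edgeR adjusted p = 0.00033). Some exon bases of *Slamf7* are shared with the annotated gene *Gm37787*.

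*Fcgr3* (ENSMUSG00000059498, chr1:171051174-171064935, minus strand) encodes FcγRIII (CD16), which binds IgG on coated target cells. Its counts were 4985, 7501 and 6590 in NK cells and 0, 128 and 0 in CD8+ T cells, so CD8+ T cell library 2 alone held reads. The normalised count was 5686 ± 745 in NK cells and 52.3 ± 90.6 in CD8+ T cells (SD, n = 3 each). The fitted log2 fold change of 6.77 (SE 2.08) did not pass (edgeR adjusted p = 0.082), and without CD8+ T cell library 2 the adjusted p was 0.00092. Of the related Fc receptor genes, *Fcgr4* was at 0 in all 6 libraries, and *Fcgr2b*, the inhibitory member, had 563, 931 and 616 counts in NK cells and 0, 0 and 118 in CD8+ T cells (log2 fold change 4.03, SE 2.28, edgeR adjusted p = 0.27). Reads shared by near-identical Fc receptor exons were not counted by the authors, so the split between these genes is uncertain.

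*Cd226* (ENSMUSG00000034028, chr18:89176967-89272229, plus strand) encodes DNAM-1, which binds the adhesion molecules CD155 and CD112 and is known from T cells as well. It had 679, 635 and 1331 counts in NK cells and 996, 3541 and 2979 in CD8+ T cells. After normalisation all CD8+ T cell libraries were above all NK cell libraries, the closest pair being 1219 in CD8+ T cell library 1 and 1197 in NK cell library 3. The mean normalised count was 796 ± 353 in NK cells and 2815 ± 1563 in CD8+ T cells (SD, n = 3 each), 3.53-fold higher in CD8+ T cells. The log2 fold change of -1.82 (SE 0.57) did not pass (edgeR adjusted p = 0.087) but did so without CD8+ T cell library 1, the lowest of its group (-2.18, edgeR adjusted p = 0.044). *Cd226* was the only receptor of the 4 with reads in every library of both cell types.

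*Fcer1g* (ENSMUSG00000058715, chr1:171229572-171234365, minus strand) gave the highest counts of the set, with 297389, 401504 and 404854 in NK cells. The CD8+ T cell libraries held 117, 456 and 2 counts and thus differed widely among themselves. The normalised count was 329886 ± 37707 in NK cells and 235 ± 290 in CD8+ T cells (SD, n = 3 each), and the log2 fold change was 10.46 (SE 1.81, edgeR adjusted p = 0.017). *Fcer1g* lost its call when any one NK cell library was left out, with edgeR adjusted p-values of up to 0.063. *Tyrobp* (ENSMUSG00000030579, chr7:30413760-30417585, plus strand) had 270220, 332413 and 318804 counts in NK cells and 0, 544 and 0 in CD8+ T cells, again with reads in CD8+ T cell library 2 alone. Its normalised count was 275996 ± 12021 in NK cells and 222 ± 385 in CD8+ T cells (SD, n = 3 each). The log2 fold change of 10.28 (SE 2.63) missed the threshold (edgeR adjusted p = 0.054), and without CD8+ T cell library 2 the adjusted p was 0.00031.

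*Hcst* (ENSMUSG00000064109, chr7:30417712-30419854, minus strand) was the transmembrane adaptor for which the cell types stood closest. It had 14563, 18851 and 20212 counts in NK cells and 6012, 10150 and 8284 in CD8+ T cells, so the groups did not overlap. The normalised count was 16044 ± 2012 in NK cells and 9273 ± 2769 in CD8+ T cells (SD, n = 3 each), 1.73-fold higher in NK cells. The log2 fold change was 0.79 (SE 0.25) and did not pass (edgeR adjusted p = 0.086). Without CD8+ T cell library 2 it was 1.09 (edgeR adjusted p = 0.018). *Tyrobp* and *Hcst*, although adjacent, thus had log2 fold changes of 10.28 and 0.79. Whether reads were assigned by strand is not stated, and the genes share no exon base.

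CD8+ T cell library 2 had the highest normalised count of its group for all 6 genes of the set that had reads in CD8+ T cells. Against the NK cell mean, *Tyrobp* stood at 0.242% in this library, *Fcer1g* at 0.170%, *Fcgr3* at 2.76% and the sort marker *Klrb1c* at 0.189%. *Ncr1* had no count there, where 3 counts would be 0.00245% of its NK cell mean, and *Slamf7*, *Sh2d1b1* and *Syk* were at 0 as well. In CD8+ T cell library 3 the order was different, with *Klrb1c* at 1.03% but *Tyrobp* at 0 and *Fcer1g* at 0.000587% of the NK cell mean. The share of one cell type in the libraries of the other was not tested.

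*Sh2d1a* (ENSMUSG00000005696, chrX:42502453-42529330, plus strand) encodes SAP, which couples SLAM family receptors to the kinase FYN in T cells and NK cells. It had 4223, 5682 and 5527 counts in NK cells and 1137, 3127 and 1634 in CD8+ T cells. The normalised count was 4613 ± 448 in NK cells and 2269 ± 1359 in CD8+ T cells (SD, n = 3 each), 2.03-fold higher in NK cells, and CD8+ T cell library 2 came nearest to the NK cells with 3835 against 4109. The log2 fold change of 1.02 (SE 0.43) did not pass (edgeR adjusted p = 0.17), and without CD8+ T cell library 2 it was 1.66 (edgeR adjusted p = 0.013). Some exon bases of *Sh2d1a* are shared with *Tenm1*.

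*Sh2d1b1* (ENSMUSG00000102418, chr1:170277320-170286769, plus strand) encodes EAT-2, the SAP relative of NK cells through which SLAMF7 signals. It was at 0 in all CD8+ T cell libraries and had 1773, 1514 and 2087 counts in NK cells. Its normalised count in NK cells was 1623 ± 317 (SD, n = 3), at least 475-fold higher (edgeR adjusted p = 0.0031). Its paralog *Sh2d1b2* (ERT) had 4, 3 and 11 counts in NK cells and none in CD8+ T cells, and reads that fit both paralogs equally were not counted by the authors. *Slamf7* and its adaptor thus were both without a count in CD8+ T cells, whereas *Sh2d1a* was counted in all 6 libraries.

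*Syk* (ENSMUSG00000021457, chr13:52583173-52648792, plus strand), the kinase recruited by phosphorylated ITAMs, had 1324, 2360 and 1118 counts in NK cells and none in CD8+ T cells. The normalised count in NK cells was 1423 ± 500 (SD, n = 3), at least 416.5-fold higher (edgeR adjusted p = 0.0048). *Syk* is also known from B cells. The 3 B cell genes summed to 8.89, 52.6 and 0.0622 CPM in NK cell libraries 1, 2 and 3, so that library 2 was highest and library 3 lowest for both *Syk* and this sum. In NK cell library 2 the sum came almost wholly from 1813 counts of *Cd79b*. In CD8+ T cells, without a *Syk* count, the sums were 230.4, 164 and 32.5 CPM. The part of B cells in the *Syk* counts was not tested. All 3 CD8+ T cell libraries were at 0 for 4 of the 10 genes and for 10.9% of all genes tested. These 4 passed the filter on low counts through NK cells alone. In 1 or 2 of the CD8+ T cell libraries 0 counts were found for 2 genes (*Fcgr3* and *Tyrobp*), beside 23.8%. The set was chosen with earlier results of these data known, so these shares are a description and not a test.

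Levels between genes were compared per length, as counts scaled to the effective library size and divided by exon length (FPKM). In NK cells *Tyrobp* (16929 ± 737 FPKM) and *Fcer1g* (15257 ± 1744 FPKM) led and overlapped (SD, n = 3 for each level in this comparison). They were followed by *Ncr1* with 3378 ± 348 FPKM and *Hcst* with 1256 ± 157 FPKM. The middle of the order was held by *Fcgr3* (146 ± 19.1 FPKM), *Sh2d1a* (105 ± 10.2 FPKM), *Slamf7* (64.9 ± 3.56 FPKM) and *Sh2d1b1* (22.1 ± 4.31 FPKM). *Syk* (8.17 ± 2.87 FPKM) and *Cd226* (6.13 ± 2.71 FPKM) were lowest and overlapped, while all other neighbours in this order were apart in their 3 libraries. Both ITAM adaptors thus stood above every receptor of the set in each NK cell library. In CD8+ T cells the order began with *Hcst* (726 ± 217 FPKM), followed by *Sh2d1a* (51.5 ± 30.9 FPKM), which lay below it in every library. *Cd226* (21.7 ± 12.0 FPKM), *Tyrobp* (13.6 ± 23.6 FPKM), *Fcer1g* (10.9 ± 13.4 FPKM) and *Fcgr3* (1.34 ± 2.33 FPKM) came next, each overlapping its neighbour, and the other 4 genes were at 0.

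**Figure D3:**
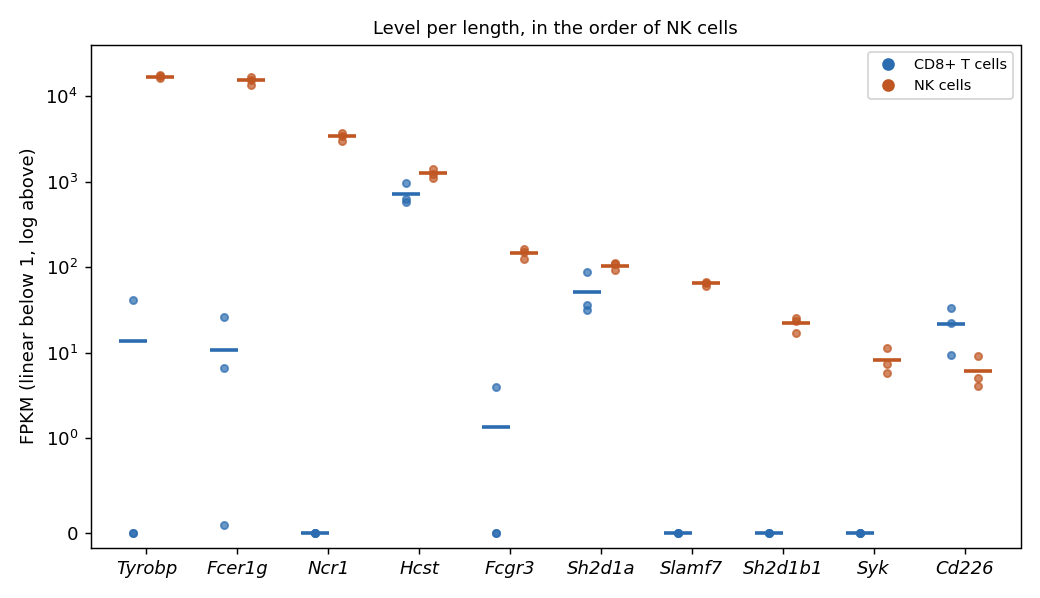
Level per length (FPKM) of each gene, ordered by its mean in NK cells, on an axis that is linear below 1 and logarithmic above; points are libraries and bars are means. *Tyrobp* and *Fcer1g* lead in NK cells, and *Hcst* leads in CD8+ T cells.

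The composition of the 3 transmembrane adaptors of the set differed between the cell types. Of the summed FPKM of *Fcer1g*, *Tyrobp* and *Hcst*, *Hcst* made up 3.62% to 3.97% in NK cells against 98.9%, 93.6% and 100.0% in the libraries of CD8+ T cells. In NK cells *Tyrobp* took 49.1% to 52.7% and *Fcer1g* 43.7% to 47.0%. The ITAM chain *Cd247* (CD3ζ) is not part of the set or of this sum. It was at 180, 157 and 245 FPKM in the CD8+ T cell libraries and at 119, 119 and 113 FPKM in those of NK cells. The ratio of *Tyrobp* to *Hcst* per length was 13.6 ± 1.11 and that of *Fcer1g* to *Hcst* was 12.2 ± 0.384 in NK cells (SD, n = 3 each), so both ITAM adaptors exceeded *Hcst* in every NK cell library. All 10 genes together accounted for 2.26% to 2.53% of the total count in NK cells and for 0.0394% to 0.0850% in CD8+ T cells.

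**Figure D4:**
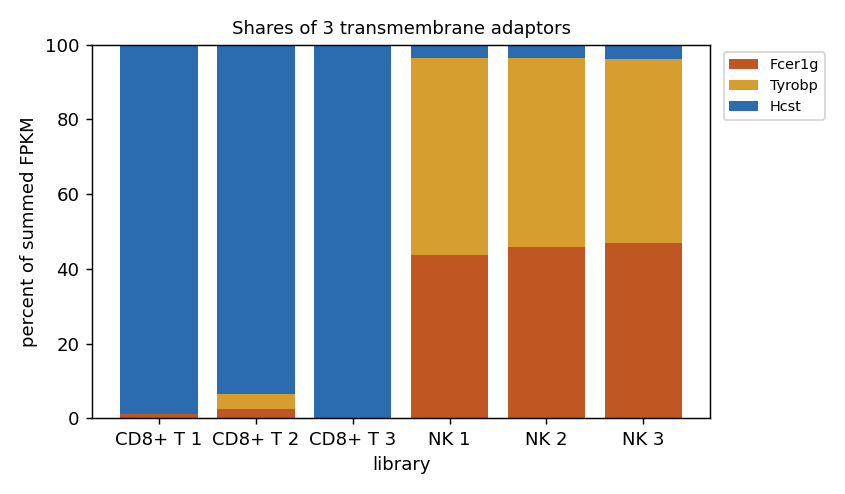
Share of each adaptor in the summed FPKM of *Fcer1g*, *Tyrobp* and *Hcst*, in percent, with 1 bar per library. *Hcst* fills 93.6% or more of the CD8+ T cell bars and at most 3.97% of the NK cell bars.

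The molecules that act after the ITAM adaptors, together with the ITAM chain *Cd247*, were taken as a list of 22 genes, of which 21 were tested. With edgeR, 3 were higher in NK cells, 2 were higher in CD8+ T cells and 16 did not pass, beside 6.1% and 5.04% of all genes tested in these directions. The median log2 fold change was 0.50 beside 0.10 over all genes. *Lat2* (NTAL), a scaffold related to LAT, had 15403, 19935 and 21958 counts in NK cells and none in CD8+ T cells, at least 5016-fold higher (edgeR adjusted p = 0.00029). *Lat*, the scaffold of T cell receptor signalling, had 10915, 10465 and 10983 counts in NK cells and 21206, 17000 and 40293 in CD8+ T cells (log2 fold change -1.55, SE 0.26, edgeR adjusted p = 0.015). Both scaffolds were thus present in NK cells, at a *Lat* to *Lat2* ratio per length of 0.851 ± 0.168 (SD, n = 3), and *Lat* alone was counted in CD8+ T cells. The small GTPase *Rac2* was higher in NK cells by 1.15 on the log2 scale (SE 0.15, adjusted p = 0.0061) and *Sh3bp2*, an adaptor that binds SYK, was at least 213-fold higher in NK cells (adjusted p = 0.015, edgeR for both). *Lat2* and *Sh3bp2* had 0 counts in every CD8+ T cell library and so passed the filter on low counts through NK cells alone. On the T cell side *Grap2* (GADS), which links LAT to SLP-76, was at -1.58 (SE 0.33, edgeR adjusted p = 0.031).

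*Zap70*, which binds the same phosphorylated motifs as SYK, had 12348, 11891 and 13212 counts in NK cells and 10746, 7222 and 13438 in CD8+ T cells. The groups overlapped, and the log2 fold change was -0.05 (SE 0.21, edgeR adjusted p = 0.91), with a sign that turned under RLE scaling (0.01). The ratio of *Zap70* to *Syk* per length was 25.0, 13.5 and 31.7 in the 3 NK cell libraries. *Vav1*, a guanine nucleotide exchange factor downstream of both kinases, also overlapped (0.04, SE 0.21, edgeR adjusted p = 0.92), and *Btk*, a B cell and myeloid kinase of the list, was at 0 in all 6 libraries. Of the 5 calls, those of *Sh3bp2*, *Lat* and *Grap2* were lost when any one NK cell library was left out, and that of *Grap2* also without CD8+ T cell library 2 or 3 (edgeR adjusted p up to 0.14), and the list had 2 calls without any one NK cell library.

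Receptors that pair with these adaptors or belong to the same families, with the paralogs of the set, formed a list of 18 genes, of which 16 were tested. With edgeR, 6 were higher in NK cells, 2 were higher in CD8+ T cells and 8 did not pass, beside 6.1% and 5.04% of all genes, at a median log2 fold change of 3.77 beside 0.10. The 6 include *Klrb1c*, on whose product the NK cells were sorted, so this call is not independent of the sort. *Klrk1* (NKG2D), which signals through HCST and TYROBP, had 9752, 13423 and 11403 counts in NK cells and 170, 174 and 191 in CD8+ T cells (log2 fold change 5.67, SE 0.24, edgeR adjusted p = 0.00017). The spread of *Klrk1* was small in both cell types. *Klra8* (Ly49H) and *Klra4* (Ly49D), activating receptors that use TYROBP, were at least 4406-fold and at least 8025-fold higher in NK cells (edgeR adjusted p = 0.00017 and 0.00025), although counts of single genes in this near-identical family are uncertain. *Cd244a* (2B4), a SLAM family receptor that uses SAP and EAT-2, had 9995, 11123 and 8842 counts in NK cells and 2, 0 and 2 in CD8+ T cells, at least 2633-fold higher (edgeR adjusted p = 0.00027). *Klra8*, *Klra4* and *Cd244a* had at most 2 counts in any CD8+ T cell library and so passed the filter on low counts through NK cells alone.

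Higher in CD8+ T cells were *Slamf6* (Ly108; log2 fold change -1.97, SE 0.32) and *Cd96*, which shares the ligand CD155 with *Cd226* (-1.51, SE 0.25), with edgeR adjusted p-values of 0.013 and 0.014. *Cd226* and *Cd96* thus both had all CD8+ T cell libraries above all NK cell libraries. The SLAM family members *Slamf7* and *Cd244a* were higher in NK cells and *Slamf6* in CD8+ T cells, whereas *Cd84* did not pass (0.73, SE 0.37, edgeR adjusted p = 0.23). *Crtam*, a receptor of activated T cells and NK cells, had overlapping groups (-0.04, SE 0.95, edgeR adjusted p = 0.99), with a sign that turned to 0.02 under RLE scaling. The call of *Slamf6* was lost without NK cell library 1 or 3 and that of *Cd96* without NK cell library 3 (edgeR adjusted p up to 0.079), and the list had 5 calls without NK cell library 3.

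Molecules that restrain these pathways, such as phosphatases and ubiquitin ligases, formed a list of 13 genes that were all tested. With edgeR, 2 were higher in NK cells, none was called higher in CD8+ T cells (0 also at an unadjusted p below 0.05 and with DESeq2) and 11 did not pass, beside 6.1% and 5.04% of all genes in these directions. The median log2 fold change was 0.41 beside 0.10 over all genes. Without CD8+ T cell library 3 the list had 4 calls, all higher in NK cells. *Inpp5d* (SHIP1), a lipid phosphatase that opposes phosphoinositide 3-kinase, had 11914, 13932 and 12148 counts in NK cells and 642, 1276 and 951 in CD8+ T cells (log2 fold change 3.39, SE 0.32, edgeR adjusted p = 0.0018). The adaptor *Dok2* was 1.93 higher on the log2 scale (SE 0.27, edgeR adjusted p = 0.0077). The tyrosine phosphatase *Ptpn6* (SHP-1) and the ubiquitin ligase *Cblb* had overlapping groups, at -0.16 (SE 0.34) and 0.17 (SE 0.65), with edgeR adjusted p-values of 0.79 and 0.89 and a sign that turned without CD8+ T cell library 1, for *Cblb* also without library 2.

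**Figure D5:**
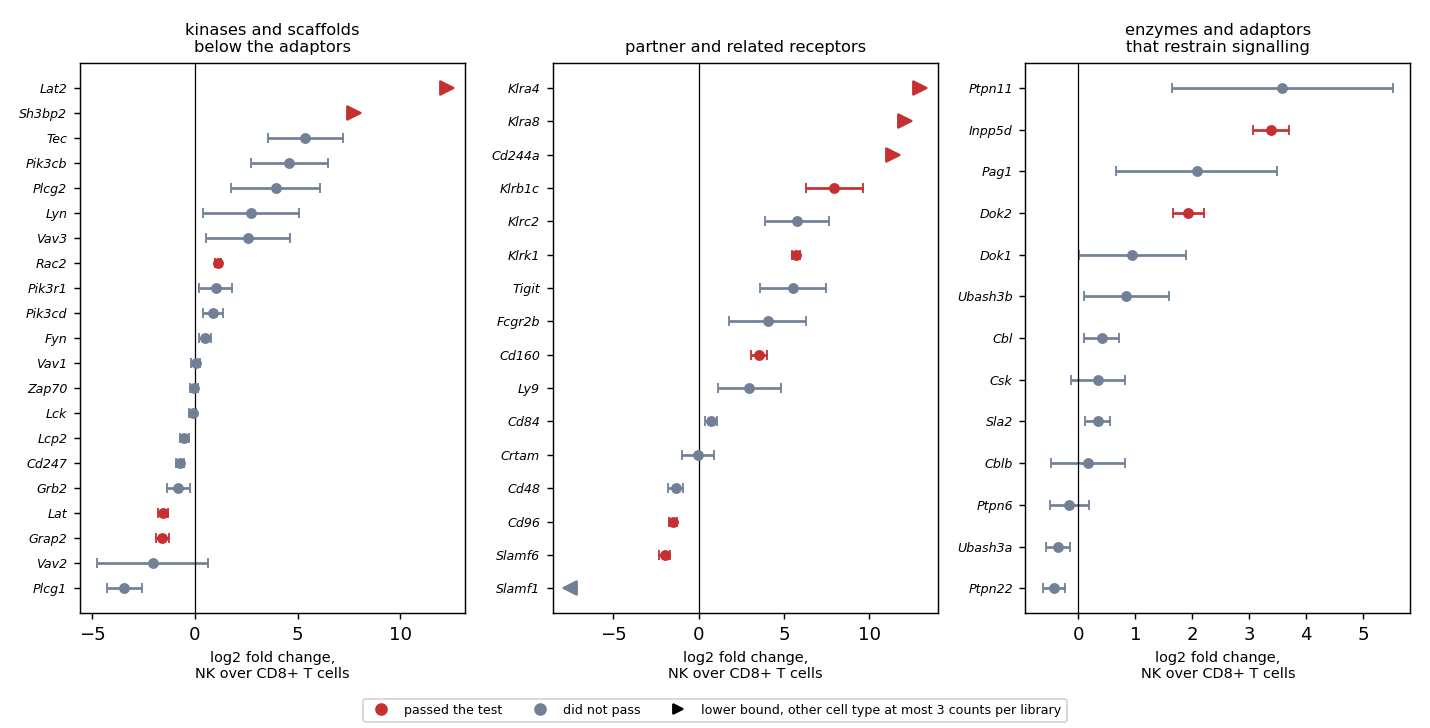
Log2 fold change for each tested gene of the 3 lists, positive where NK cells were higher, as points with the standard error as a bar, or as triangles for lower bounds, with red for genes that passed the test. The list after the ITAM adaptors holds 3 calls on the NK cell side and 2 on the other, and the restraint list holds 2 on the NK cell side.

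The genes most like *Ncr1* in level across the 6 libraries were *S1pr5*, *Cma1*, *Klra4*, *Arl4d* and *Irf8*, with root mean square differences of 1.25, 1.48, 1.74, 2.05 and 2.15 in log2(normalised count + 1). *S1pr5*, a sphingosine-1-phosphate receptor, had 49106, 50163 and 48061 counts in NK cells and none in CD8+ T cells. All 5 had at most 2 counts in any CD8+ T cell library, which the choice by likeness to *Ncr1*, at 0 there, favours. The measure weighs the level itself as well as the contrast, and is a description without a test.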

How the data were processed

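RNA of FACS-purified splenic *Tyk2*-/- NK cells and CD8+ T cells was amplified with Smart-seq2 from 500 pg per library and sequenced as 50 bp single-end reads. The authors used Trimmomatic 0.32 for trimming and STAR 2.7.1 for alignment to mm10. They deposited raw counts per gene, made from exonic reads with 1 position only, which lowers the counts of gene families with similar exons. Strand use in counting is not given in the sources used here. Of 104 columns of counts, 6 were used and 98 were not. The latter include 3 *WT* CD8+ T cell columns, whose names do not tell which of the 2 samples so labelled they hold, and the comparison with *WT* was therefore not run. The column numbers are not the samples' replicate numbers, and libraries 1 to 3 are named in column order.

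Symbols and exon lengths came from GENCODE M21 (54079 of 54232 IDs matched). Counts were normalised by TMM factors to the average effective library size. The 14062 genes whose normalised count averaged 10 or more were fitted in R 4.3.3 with edgeR 4.0.16 (robust quasi-likelihood, Benjamini-Hochberg over all of them), with calls at an adjusted p-value below 0.05 and a change of 1 or more on the log2 scale. The standard error is the absolute log2 fold change over the square root of F. Folds against a group with at most 3 counts in each library are lower bounds, computed from 3 counts per library. Floors cover counting error only, since no molecular identifiers were used, and do not cover the spread between libraries. Each library is a pool of spleens, and p-values measure the spread between these libraries. On simulated counts for 14062 genes of this comparison, edgeR called 55 of 100 16-fold and 16 of 100 4-fold changes and 2 of 13862 unchanged genes at the estimated dispersions. The simulation gave each gene the same dispersion in both cell types, whereas the spread of the data was larger within CD8+ T cells.

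Alternatives were RLE scaling, DESeq2 1.42.0, no filter, random thinning of the NK cell counts to the lowest CD8+ T cell depth, the longest transcript as length, and leaving out each library in turn. The members and the lists were chosen with earlier results of these data known, and 2 genes of the lists are not reported here. Named were *Tyk2*, the members, paralogs, the 5 genes nearest to *Ncr1* and, per list, up to 4 called genes per direction by adjusted p and the 2 uncalled genes with the smallest change. *Btk*, *Cd247*, *Klrb1c* and marker genes were named after their values were seen.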

Additional observations from a re-analysis of the deposited data

How the results depend on the processing

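No paired analysis was possible because NK and CD8+ T cell columns share no replicate number that the labels give. Differences between the cell types therefore cannot be told apart from differences between these sets of replicates. *Ncr1*, *Slamf7*, *Sh2d1b1* and *Syk* were called in all 10 alternatives, with highest edgeR adjusted p-values of 0.0042, 0.0065, 0.038 and 0.047, and *Fcer1g* in 7 of 10. No gene of the set changed direction in these 10. DESeq2 called 3537 genes (2027 higher in NK cells) against 1567 with edgeR, and 8 genes of the set against 5, adding *Fcgr3*, *Tyrobp* and *Cd226*, and 8 against 5 of the list after the ITAM adaptors, and the cause was not tested. With NK cell libraries thinned 6 were called, adding *Tyrobp* (edgeR adjusted p = 0.0497). Leaving out 1 library gave 475 to 1876 calls over all genes, 475 to 485 of them without an NK cell library. For the set it gave 4 to 9 calls, for the list after the ITAM adaptors 2 to 6, for the partner receptors 5 to 10 and for the restraint list 2 to 4. Genes near 0 changed sign without a call: *Vav1* (-0.029 with thinning, -0.072 to 0.14 without 1 library), *Zap70* (0.014 with RLE scaling and with DESeq2, -0.18 to 0.059 without 1 library), *Crtam* (0.020 with both, -0.51 to 1.70), *Ptpn6* (-0.35 to 0.32) and *Cblb* (-0.13 to 1.00). The longest transcript as length moved the NK cell levels of *Slamf7* to 74.8 FPKM and of *Sh2d1a* to 130.5 FPKM. A gene at 0 in CD8+ T cells was not detected in these libraries, and its absence from the cells does not follow. Zeros also stood beside counts within the group, as for *Tyrobp* with 0, 544 and 0, and their cause was not tested. The alternatives planned for *WT* CD8+ T cells were not run.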
